A study of Homo sapiens with 15 samples.

Results

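Complement components and regulators were followed in PE/CA-PJ41 cells, a human oral squamous carcinoma line, that carried either an empty vector or a cytoglobin cDNA. The 9 genes named were C3, C1R, C1S, CFB, CFI, CD46, CD55, CD59 and CLU. A probe was a member where its array annotation held a RefSeq accession of one of these genes, which gave 12 of the 42405 non-control probes on the array. These covered 8 of the 9 genes, out of 19483 genes that could be named on the array. The exception was CLU, because no accession on the array matched CLU through the RefSeq table used here, and it was not analysed here. The genes were selected on their difference between the same groups of arrays in the same green channel, so the values of the members are a description and carry no test.

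The study asked how cytoglobin alters the transcriptome of oral carcinoma cells. The group NCE consisted of PE/CA-PJ41 cells with the empty transfection vector by the labels, although the study's text also calls NCE un-transfected, so that vector and selection may not be matched between groups, and the group CYGB+ of PE/CA-PJ41 cells with the pCMV6-Neo plasmid holding the human cytoglobin cDNA. Stable clones were picked with cloning rings under G418, RNA was taken after 24 h in supplemented medium, and the labels name no further treatment. Each group had 3 biological replicates, with 3 repeat arrays each for NCE (9 arrays) and 2 each for CYGB+ (6 arrays). The CYGB+ cells were 1 clone, LST421 by the study's methods, so that the clone and the transgene cannot be told apart. The labels give the dye Cy3 for all 15 samples, whereas the study's methods describe control RNA as labelled with Cy5. The green (Cy3) channel was therefore read for both groups, and the RNA in the red channel, which the labels do not name, entered no comparison.

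Complement is a cascade of plasma and membrane proteins that tags and lyses targets. In the classical pathway the proteases C1r and C1s, bound to C1q, cleave C4 and C2, while the alternative pathway amplifies deposition of C3 through factor B. Both converge on C3, and host cells limit the cascade with soluble proteins such as factor I and with membrane proteins such as CD46, CD55 and CD59. The liver makes most of the plasma proteins, but epithelial cells, keratinocytes and carcinoma lines also transcribe several of them.

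The labels could not be checked with the gene that was transfected. The CYGB probe was bright in both groups, at 11.99 ± 0.15 in NCE and 11.93 ± 0.53 in CYGB+ (SD, n = 3, log2 green signal), a difference of -0.05 (limma, Benjamini-Hochberg adjusted p = 0.913). The place of this probe relative to the inserted cDNA is not given in the sources used here. The study describes the parent line as not expressing cytoglobin and LST421 as expressing a high level, a contrast that this probe does not show. It measured cytoglobin in its lines by qPCR and in-cell ELISA and followed some array genes by qPCR, none of which was used here. Each direction is given as the array labels state it, and CYGB+ stands throughout for the arrays labelled so. Of 8 markers of squamous epithelium, all 8 were well above background on every array, with summed signals of 66520 to 75370 in the NCE replicates and 68790 to 88970 in the CYGB+ replicates. None of the 4 hepatocyte, 5 fibroblast or 3 endothelial markers was well above background on all arrays, and ALB and TTR were so on none. Of 4 leukocyte markers, CD14 and CD68 were above background on all arrays, and the summed signals were 801 to 950.3 in NCE and 812 to 945 in CYGB+. The groups lay largely on different slides, since slide 1 held 8 NCE arrays, and slide 2 held the remaining NCE array (replicate 1) and all 6 CYGB+ arrays. The first repeat array of CYGB+ replicate 1 had a median correlation of 0.930 with the other arrays, against 0.967 to 0.985 for the rest.

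Sequence upstream of the transcription start is shown for 3 members, CFB and C1R, which had higher values in CYGB+, and CD55, which had nearly level values, so that their regulatory letters can be read beside the expression values. The windows hold 250 bases before the start site and come from RefSeq on GRCh38.p14, which gave a window for 6 of the 8 members looked for by symbol, namely C1R, CFB, CFI, CD46, CD55 and CD59. The CFB window is chr6:31945845-31946094 on the plus strand, the C1R window chr12:7092446-7092695 on the minus strand, and the CD55 window chr1:207321428-207321677 on the plus strand. Each is written from 5′ to 3′ on the strand of the gene, with the motif matches described next in capitals.
CFB: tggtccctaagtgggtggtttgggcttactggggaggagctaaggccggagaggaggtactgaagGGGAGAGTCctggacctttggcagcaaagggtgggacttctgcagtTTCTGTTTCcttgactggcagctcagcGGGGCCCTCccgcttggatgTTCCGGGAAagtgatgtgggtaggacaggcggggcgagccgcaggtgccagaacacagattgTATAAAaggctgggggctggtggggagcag
C1R: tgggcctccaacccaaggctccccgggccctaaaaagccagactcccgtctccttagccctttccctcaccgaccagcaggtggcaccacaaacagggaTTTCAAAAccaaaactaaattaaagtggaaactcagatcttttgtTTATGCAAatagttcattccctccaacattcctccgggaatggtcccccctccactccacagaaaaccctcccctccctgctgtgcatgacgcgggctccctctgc
CD55: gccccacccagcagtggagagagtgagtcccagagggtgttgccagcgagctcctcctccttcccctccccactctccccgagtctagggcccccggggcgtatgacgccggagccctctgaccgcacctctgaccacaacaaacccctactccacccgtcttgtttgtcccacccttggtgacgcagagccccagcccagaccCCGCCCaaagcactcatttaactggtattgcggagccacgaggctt

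The motifs searched on both strands were the TATA box (TATAAA), GC box (GGGCGG), C/EBP (TTNNGNAA), the first letters of an NF-kB site (GGGNNNNTC), the STAT element GAS (TTCNNNGAA), the interferon response element (GAAANNGAA) and AP-1 (TGANTCA). CFB held 5 matches, a TATA box starting at base -30 from the start site, NF-kB matches at -185 and -112, a GAS element at -92 and, on the opposite strand, an interferon response element at -139. C1R held C/EBP matches at -151 on the opposite strand and at -106, and CD55 held 1 GC box on the opposite strand at -46. No matches overlapped in these windows. Over all 35116 windows of this length, a TATA box was present in 10.7%, a GC box in 42.6%, a C/EBP match in 33.2%, an NF-kB match in 45%, a GAS element in 6.57%, an interferon response element in 6.88% and an AP-1 match in 6.57%. CD46 held 2 GC boxes and 1 NF-kB match, CD59 1 GAS element and CFI 2 C/EBP matches. A match is a description of these letters and not a binding site.

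Across the members, C3 was lower in CYGB+, the C1 proteases were higher, factor B leaned higher with overlapping groups, and the membrane regulators differed little. In bulk RNA, fewer cells with a transcript and less of it per cell cannot be told apart. Of the 9 member probes that passed the filter on dim signal, 2 were past the threshold of the fit in the lower direction and 1 in the higher direction. In the fit without a block, 10.8% of all 22328 probes tested were past it, 5.5% higher and 5.32% lower in CYGB+. With replicate number as a block, 2 member probes were past it lower and 3 higher, beside 1477 lower and 1456 higher among all probes tested. With slide as a block, 2 member probes were past it lower and 0 higher, beside 447 lower and 281 higher among all probes tested. The biological replicates of the groups did not overlap for 5 of the 9 member probes, against 33.3% of all probes tested. Because the members were selected on this contrast, nothing is read from these counts. The median difference over the 9 probes, CYGB+ minus NCE, was 0.05 on the log2 scale, and over all probes tested it was 0.00146. The 3 member probes that did not pass the filter were the second C1S probe and both CFI probes.

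C3 is the central component, whose cleavage releases the anaphylatoxin C3a and leaves C3b bound to the target. On its first probe, A_23_P101407, the log2 green signal was 9.27, 9.19 and 9.37 in NCE replicates 1 to 3 and 7.76, 7.77 and 7.84 in CYGB+ replicates 1 to 3. All 3 CYGB+ replicates lay below all 3 NCE replicates, and so did the single arrays, which ran from 9.09 to 9.56 in NCE and from 7.65 to 7.86 in CYGB+. The means were 9.28 ± 0.09 and 7.79 ± 0.04 (SD, n = 3), a log2 difference of -1.49, or 2.80-fold lower in CYGB+. The differences between replicates of the same number were -1.51, -1.41 and -1.53. Among all probes tested, 21 had a difference below this one, and the lowest difference on the array was -3.55.

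The second C3 probe, A_33_P3347869, had the same direction. It read 7.46, 7.58 and 7.71 in NCE and 6.52, 6.50 and 6.73 in CYGB+, again without overlap between replicates or between arrays. The means were 7.58 ± 0.13 and 6.58 ± 0.13 (SD, n = 3), a log2 difference of -1.00 and a 2.00-fold lower signal. The offset of 50 units added before the logarithm compresses dim probes, and with the scanner software's processed signal this probe had a difference of -1.69. Within slide 2, against the single NCE array there, the differences of the C3 probes were -1.77 and -0.92. The same NCE replicate read 0.44 higher on slide 2 than on slide 1 with the first probe and 0.08 higher with the second. This comparison rests on 1 array, and the part of the slide in the C3 values was not tested.

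C1R, the protease that starts the classical cascade by cleaving C1s, was higher in CYGB+ on both of its probes. Probe A_33_P3393821 read 10.25, 10.31 and 9.99 in NCE and 10.80, 11.27 and 10.79 in CYGB+. Every CYGB+ array lay above every NCE array, with NCE between 9.85 and 10.49 and CYGB+ between 10.63 and 11.41. The means were 10.18 ± 0.17 and 10.95 ± 0.27 (SD, n = 3), a log2 difference of 0.77, or 1.70-fold. With slide as a block the difference was 0.46, and within slide 2 it was also 0.46. NCE replicate 1 read 0.35 higher on slide 2 than on slide 1 with this probe. That slide difference also rests on 1 array, and its part in the group difference was not tested.

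Probe A_23_P125423 for C1R read 7.48, 7.83 and 7.61 in NCE and 8.03, 8.14 and 7.98 in CYGB+. Neither the replicates nor the arrays of the groups overlapped. Means of 7.64 ± 0.18 and 8.05 ± 0.08 (SD, n = 3) gave a log2 difference of 0.42, or 1.33-fold, and 0.46 within slide 2. The log2 values of the probes of one gene are not compared with each other in level, since each probe has its own response.

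C1S, the protease that C1r activates and that cleaves C4 and C2, was higher in CYGB+ in the same direction as C1R. No protein-coding gene lies between C1S and C1R in the RefSeq annotation. Probe A_23_P2492 read 7.40, 7.65 and 7.94 in NCE and 8.08, 8.33 and 8.18 in CYGB+. The replicates of the groups did not overlap, but the arrays did, with a highest NCE array of 8.03 and a lowest CYGB+ array of 7.97. The means were 7.66 ± 0.27 and 8.19 ± 0.13 (SD, n = 3), a log2 difference of 0.53, or 1.44-fold. Within slide 2 the difference was 0.79, and NCE replicate 1 read only 0.01 higher on slide 2 than on slide 1. The second C1S probe, A_33_P3230478, was not well above background on any of the 9 NCE arrays and was so on 2 of the 6 CYGB+ arrays. Its arrays overlapped, from 5.85 to 6.22 in NCE and from 6.10 to 6.30 in CYGB+, and no fold is given.

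**Figure D1:**
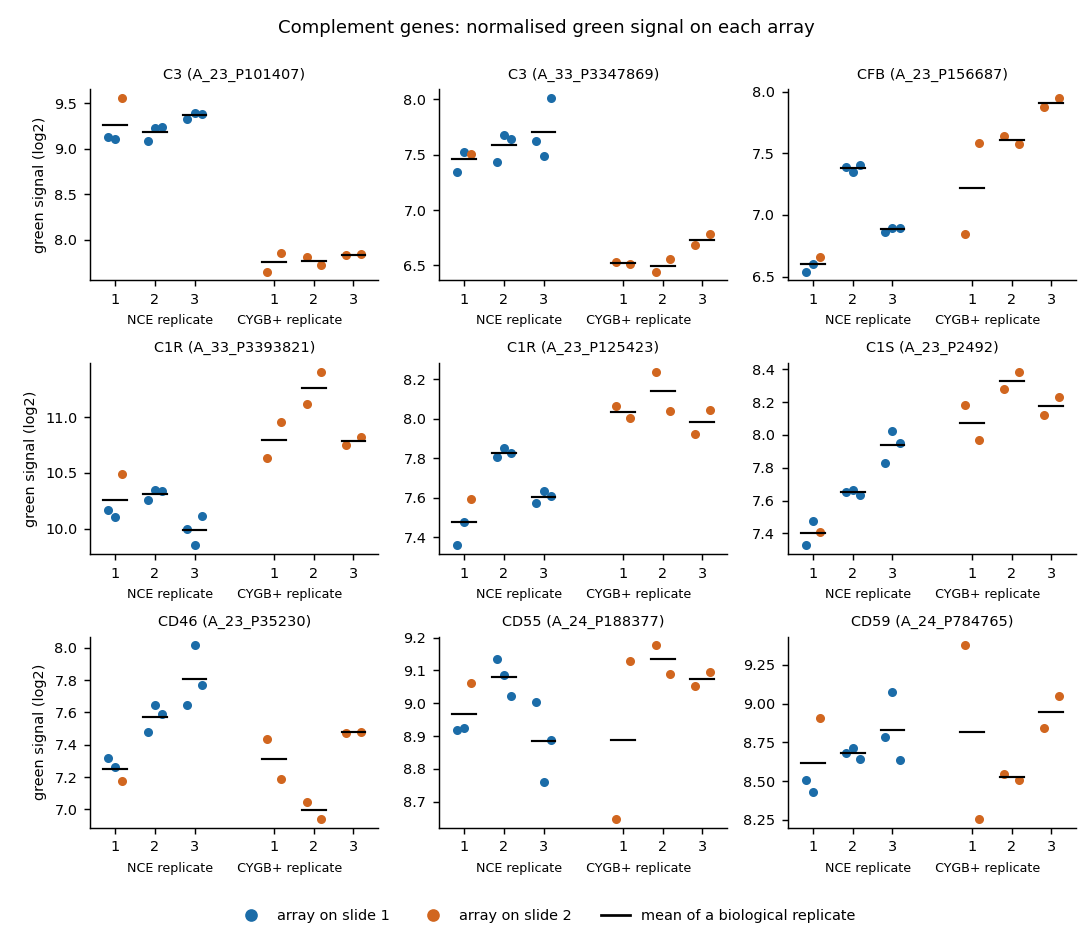
Normalised green signal (log2, vertical axis) of the 9 complement probes that passed the filter, for NCE and CYGB+ replicates 1 to 3 (horizontal axis). Each point is an array, coloured by slide, and each line the mean of a biological replicate. The CYGB+ arrays lie below the NCE arrays for both C3 probes and above them for both C1R probes, while CD46, CD55 and CD59 overlap.

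CFB encodes factor B, the protease precursor that pairs with C3b to form the alternative pathway convertase. Its probe A_23_P156687 read 6.60, 7.38 and 6.88 in NCE and 7.22, 7.61 and 7.91 in CYGB+. The groups overlapped, because NCE replicate 2 at 7.38 lay above CYGB+ replicate 1 at 7.22. The means were 6.96 ± 0.39 and 7.58 ± 0.35 (SD, n = 3), a log2 difference of 0.62, or 1.54-fold, with differences between same-numbered replicates of 0.61, 0.23 and 1.03. The repeats of CYGB+ replicate 1 read 6.85 and 7.58, and the first of them is the array that stood apart from the rest. Without that array the difference was 0.75, and within slide 2 it was 0.92. Spread among NCE replicates was wide for CFB, whereas the repeats of any NCE replicate lay close together in the plot of values by array.

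The membrane regulators had small differences. CD46, the cofactor with which factor I cleaves C3b and C4b, read 7.25, 7.57 and 7.81 in NCE and 7.31, 6.99 and 7.48 in CYGB+ on probe A_23_P35230. The means of 7.54 ± 0.28 and 7.26 ± 0.25 (SD, n = 3) differed by -0.28, about the SD of either group, and the replicates overlapped. The difference was -0.00 with slide as a block and 0.08 within slide 2, so its direction did not hold within the slide.

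CD55, which speeds the decay of the C3 convertases, read 8.97, 9.08 and 8.88 in NCE and 8.89, 9.13 and 9.07 in CYGB+ on probe A_24_P188377. These replicates interleaved, with means of 8.98 ± 0.10 and 9.03 ± 0.13 (SD, n = 3) and a difference of 0.05, which became -0.04 with slide as a block and 0.13 without the array that stood apart. CD59, which blocks assembly of the membrane attack complex, read 8.62, 8.68 and 8.83 in NCE and 8.81, 8.53 and 8.94 in CYGB+ on probe A_24_P784765. Its means of 8.71 ± 0.11 and 8.76 ± 0.21 (SD, n = 3) also differed by 0.05, and the sign turned to -0.21 with slide as a block and to -0.13 without the array that stood apart. CD59 had the widest spread between repeat arrays of one replicate among the members, an SD of 0.36 against 0.09 for the narrowest, with repeats of 9.38 and 8.25 for CYGB+ replicate 1. For both genes the difference was smaller than the SD between replicates.

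CFI encodes factor I, the soluble protease that inactivates C3b and C4b. Neither of its probes could be given a fold. A_23_P7212 was well above background on 1 of the 9 NCE arrays and on no CYGB+ array, and A_24_P92472 on none of the 15 arrays.

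**Figure D2:**
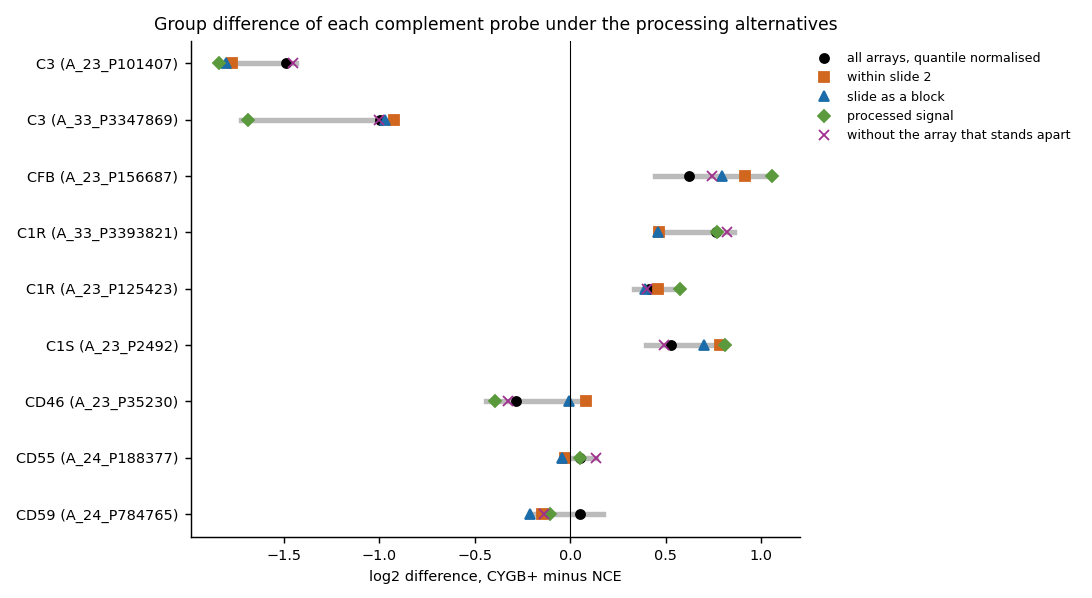
Log2 difference, CYGB+ minus NCE (horizontal axis), of the 9 complement probes under the processing alternatives, with the range over all alternatives as a grey bar and 5 settings as symbols. C3 stays below 0 and C1R, C1S and CFB above 0 at every setting, while CD46, CD55 and CD59 lie on both sides of 0.

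Over the alternatives to the processing, the difference of the first C3 probe ranged from -1.84 to -1.44 and that of the second from -1.72 to -0.92. The C1R probes ranged from 0.46 to 0.86 and from 0.34 to 0.58, C1S from 0.40 to 0.81 and CFB from 0.45 to 1.06. For the regulators, CD46 ranged from -0.44 to 0.08, CD55 from -0.04 to 0.13 and CD59 from -0.21 to 0.17. The sign was the same at every setting for C3, C1R, C1S and CFB, and not for CD46, CD55 or CD59. Under the replicate block and with each array as a sample, no sign could change. Nor could it for C3, C1R and C1S with 1 replicate left out, since their replicates did not overlap. Because the members were selected on this contrast, nothing is concluded from the signs. Both C1R probes stayed on the higher side in the within-slide comparison, which rests on 1 NCE array.

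The rest of the pathway was described from a list of 46 further complement genes grouped by role, of which 45 had a probe. Most were dim in these cells, and only 13 of their 54 probes, from 12 genes, passed the filter. With limma across all probes, 1 of the 13 fell and 1 rose (adjusted p under 0.05), against 5.32% and 5.5% over all probes. The median difference of the 13 was 0.0059, beside 0.00146 over all probes tested.

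The soluble regulator gene that passed the test was CFHR3, which fell from 7.18 ± 0.17 to 6.41 ± 0.06 (SD, n = 3), a difference of -0.77 (limma, adjusted p = 0.00994). Every CYGB+ array lay below every NCE array, with NCE between 6.95 and 7.41 and CYGB+ between 6.33 and 6.50. The offset of 50 compresses this dim probe, and the difference was -1.22 with an offset of 10 and -1.90 with the processed signal (limma, adjusted p = 0.00401 and 0.00598). It was -0.60 with slide as a block (adjusted p = 0.0306) and -0.54 within slide 2, against a single NCE array. Leaving out NCE replicate 2 or 3 left differences of -0.72 and -0.72 with adjusted p-values of 0.0549 and 0.0532, and the methods' t-test gave 0.0538 on the same difference of -0.77. CFHR3 belongs to a family of genes with similar sequences, so its signal is uncertain, and cross-hybridisation was not tested.

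**Figure D3:**
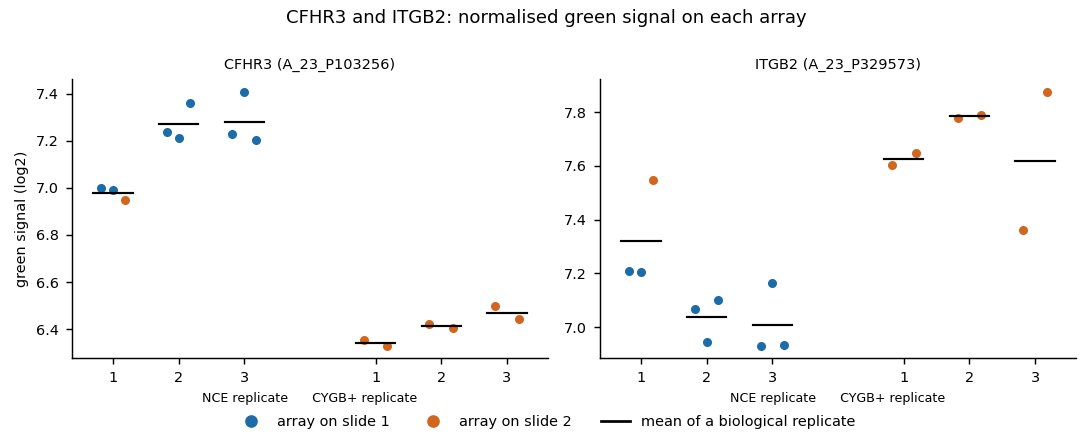
Normalised green signal (log2, vertical axis) of CFHR3 and ITGB2, for NCE and CYGB+ replicates 1 to 3 (horizontal axis), with a point for each array coloured by slide and a line at each replicate mean. The CYGB+ arrays lie below the NCE arrays for CFHR3, and the NCE array on slide 2 is the highest NCE array for ITGB2.

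Among the receptors, ITGB2, the beta chain shared by complement receptors CR3 and CR4, rose from 7.12 ± 0.17 to 7.68 ± 0.09 (SD, n = 3), a difference of 0.55 (limma, adjusted p = 0.0283). This call did not hold with slide as a block, where the difference was 0.17 (adjusted p = 0.831), and the difference within slide 2 was 0.13. Other settings also lost the call while the difference stayed near or above its size. Leaving out NCE replicate 2, NCE replicate 3, CYGB+ replicate 2 or CYGB+ replicate 3 left differences of 0.51, 0.50, 0.50 and 0.58 (adjusted p = 0.118, 0.115, 0.0678 and 0.0610). Scaling to the 75th percentile gave 0.83 with the processed signal and 0.54 with normexp (adjusted p = 0.0641 and 0.0697), and the methods' t-test gave an adjusted p of 0.0930. With the processed signal and quantile normalisation the difference was 0.89 (adjusted p = 0.0428). It was 0.64 with the values of the deposited series table (limma, adjusted p = 0.0156). The leukocyte marker sums of the groups overlapped, as given above, and their part in this value was not tested. C1QBP, the receptor for the globular heads of C1q, did not pass the test, with a difference of 0.03 (limma, adjusted p = 0.889).

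In the other roles no probe passed the test. The 3 probes of recognition and activation genes had differences from -0.12 to 0.02, and 9 of the 19 probes in that role were not well above background on any array. The alternative pathway genes CFD and CFP had differences of -0.11 and 0.25, and the terminal pathway genes C5 and C8G ranged from -0.00313 to 0.26. C5, the precursor of the anaphylatoxin C5a, had a difference of 0.26 (limma, adjusted p = 0.143), and CFP, properdin, which stabilises the alternative convertase, one of 0.25 (adjusted p = 0.141). C8G, a chain of C8 in the membrane attack complex, was well above background on all 15 arrays with probe A_33_P3262020 and had a difference of 0.15 (adjusted p = 0.283). C5, CFD and CFP were not above background on all arrays and were named after their values were seen.

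**Figure D4:**
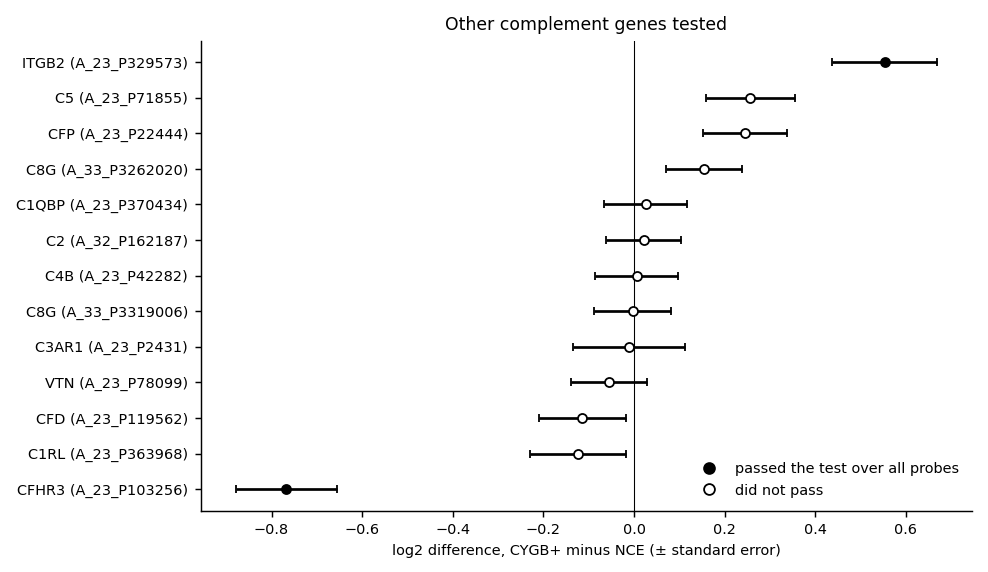
Log2 difference, CYGB+ minus NCE, with its standard error (horizontal axis), for the 13 tested probes of complement genes outside the members. Filled points passed the test over all probes: CFHR3 below 0 and ITGB2 above it.

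Across the 6 biological replicates, the probes of other genes whose pattern was most like the first C3 probe were VSTM1 (Pearson r = 0.999), NRG1 (r = 0.998) and ZNF334 (r = 0.998), with differences of -0.84, -0.70 and -0.41. In all, 58 probes, the first C3 probe itself among them, had an r above 0.99 with that probe. The likeness is a description over 6 points that fall into the same 2 groups.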

How the data were processed

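RNA of 3 NCE and 3 CYGB+ biological replicates was hybridised to 15 arrays of an Agilent human gene expression design. Per the file headers, the authors' scans were extracted with Feature Extraction 10.7.3.1, and the deposited files give green and red intensity for each spot (median signal, background and the software's processed signal) with flags. A deposited series table held values for 15040 probes, read here as centred log2 values. Its scale, centring and direction are not stated, and its column medians ran from -0.16 to 0.18. On every array it followed the green intensity (r = 0.437 to 0.862, after centring), while for red r ran from -0.16 to 0.874.

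Green median intensity, in place of the mean intensity first planned, was background-corrected by normexp with an offset of 50 (limma 3.58.1 in R 4.3.3), quantile-normalised between arrays as the study's methods state, averaged over spots of a probe and then over the repeat arrays of each biological replicate. Control spots were dropped, as were 0.916% of spots flagged as non-uniform or population outliers. Probes well above background on at least 6 of the 15 arrays were tested, 3 against 3, with limma's moderated test and Benjamini-Hochberg adjustment over all 22328 probes, at an adjusted p of 0.05. Differences are CYGB+ minus NCE. The number of arrays limits the precision, and p-values measure the spread between RNA extractions of 1 line each.

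Of 27310 probes with a RefSeq accession, 25422 matched a current symbol. A gene of the complement list and a cell type marker are not reported here. Members and gene lists were chosen with earlier results of these data known. Named genes were the members, called genes of the complement list with up to 5 further genes of it above background on all arrays, CYGB, and the 3 probes most like the leading C3 probe. Deviations of same-numbered replicates correlated at 0.212, 0.229 and 0.302, and those of different-numbered replicates at -0.499 to 0.289. The number was also fitted as a block, on the basis of the same-numbered correlations and not of a label. Alternatives covered background correction, normalisation, filter, slide, pairing, repeat arrays, the methods' t-test, the series table and left-out replicates. Slide and scan formed the same split. Figures used matplotlib 3.10.9 in Python 3.11.15.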

Additional observations from a re-analysis of the deposited data

Results flagged for a closer look

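Repeat arrays were compared within each group for every member probe tested, 18 sets of arrays in all, and 3 arrays lay far from the others of their group. The nominal rate of about 5% of sets marked by chance holds for independent arrays. These sets share the same 15 arrays and hold repeats of a replicate, so that rate was not applied. For CD55, the first repeat array of CYGB+ replicate 1 was the lowest of its group at 8.65, with the next array at 9.05 (log2 green signal). For CFB, the same array was the lowest at 6.85, with the next at 7.58. This is the array that stood apart across all probes, and without it the CFB difference was 0.75 and the CD55 difference 0.13. For the second C3 probe, the third repeat array of NCE replicate 3 was the highest at 8.01, with the next at 7.68. The red channel, which entered no comparison, also carried signal for the complement genes, with 9 of the member probes well above background on all 15 arrays.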

How the results depend on the processing

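Against 1227 probes called higher and 1188 lower, and 2 calls in the complement list, the counts moved as follows. The processed signal scaled to the 75th percentile gave 810 and 714, and normexp scaled to it 789 and 715, each with 1 list call. Slide as a block gave 281 and 447 with 1 list call, so that 38.6% of calls were higher against 50.8% without it. Within slide 2, where 1 NCE array was assumed to vary like the CYGB+ samples, 3 and 2 probes were called, and 0 in the list with limma, where 2 of its probes had an unadjusted p under 0.05. Each array counted as a sample gave 3062, 3004 and 4 list calls. The methods' t-test, run here on averaged replicates of the filtered probes, gave 353, 307 and 0 (5 list probes at an unadjusted p under 0.05). The study reported larger counts in both directions from its t-test, and does not say how repeat arrays entered it. The values in the series table, fitted with limma over 15031 probes, gave 764, 680 and 1. The CFHR3 probe had no value in that fit, so it could not be called there. An alternative chosen after seeing the data, without the array that stood apart, gave 2089 and 2019. Leaving out 1 replicate gave 234 to 1264 higher and 246 to 1134 lower calls, with 0 to 2 in the list by limma. The list had 0 calls without NCE replicate 2 (2 probes at an unadjusted p under 0.05) or NCE replicate 3 (3 probes), and 1 without CYGB+ replicate 2 or 3. The lowest counts came without NCE replicate 2 (234 and 259) and without NCE replicate 3 (249 and 246), and counts were also over 1.5 times smaller without NCE replicate 1 (549 and 617) and CYGB+ replicate 3 (626 and 638). The replicate block gave 1456 and 1477 and changed neither the CFHR3 nor the ITGB2 call. Calls of member probes under either block are given above as counts only. Nothing is read from them, because the members were selected on this contrast. Beyond the absence of CFHR3 from the series table fit, the cause of these moves was not tested.

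Among the member probes, 120 of the values under the alternatives moved by less than the replicate SD and 21 by more. The 120 include the values under the replicate block and with each array as a sample, which by design could not move. They also include the values with 1 replicate left out, which could not move by as much as that SD. No scaling moved the median of all probes by more than 0.02. Neither C3 probe is in the series table, which holds 6 of the member probes. Slide and group overlap in 1 NCE array only, so each within-slide value rests on it. Dim probes (C1S A_33_P3230478 and both CFI probes) were given no fold.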

Other observations

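The red channel held RNA that the labels do not assign to a group. Its values are therefore given as medians and ranges over arrays, and no group difference is drawn from them. For C3 probe A_23_P101407, the median red signal over the 3 arrays of a repeat (log2) was 8.10, 10.20 and 12.06 on NCE repeats 1, 2 and 3, and 8.51 and 9.58 on CYGB+ repeats 1 and 2. Over the same arrays the green signal of this probe lay between 9.09 and 9.56 on the 9 NCE arrays, where red ran from 8.01 to 12.10, and between 7.65 and 7.86 on the 6 CYGB+ arrays, where red ran from 8.05 to 10.20. Red values of this probe differed by array repeat, as the medians above give, so the width of their range is not compared with that of green. For C1R probe A_33_P3393821, red ran from 11.74 to 13.55 on NCE arrays and from 12.28 to 14.14 on CYGB+ arrays. CFB ran from 7.48 to 9.78 and from 7.62 to 10.28, and C1S probe A_23_P2492 from 8.87 to 10.20 and from 9.13 to 11.15. CD55 ran from 10.10 to 10.89 and from 10.08 to 10.57, and CD46 from 8.46 to 9.11 and from 8.44 to 9.02. Red values of the C1R, CFB and C1S probes also differed by array repeat. For C1R probe A_33_P3393821 the red medians were 11.92, 12.06 and 13.50 on NCE repeats 1, 2 and 3. They were 12.31 and 13.62 on CYGB+ repeats 1 and 2.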
